A study of Homo sapiens with 11 samples.

Results

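The comparison described here is between liver tumours of PANC1 LM3 cells carrying the hairpin shNPTX1_4 and tumours of the same cells carrying a control hairpin, shCTRL. PANC1 is a long-established line of human pancreatic ductal carcinoma cells, and LM3 is a derivative of it that forms liver metastases, of generation 3. Both groups received 500000 cells in the spleen on day 1, and the tumours were harvested from the liver on day 21. The control group (genotype labelled WT) had 4 libraries and the shNPTX1_4 group (labelled as an NPTX1 knockdown) had 4. A second NPTX1 hairpin, shNPTX1_3, had 3 libraries and is used here only to mark what both hairpins share. Each NPTX1 group carries a single hairpin sequence, so what that sequence does to other transcripts and what the loss of NPTX1 does cannot be told apart within 1 hairpin. The labels do not give the host animal's strain or age, or say whether each library came from an animal of its own. Genes were compared where the mean over all 11 libraries was at least 38.6 normalized counts (2 CPM, that is, counts scaled to the mean library total of the table) and no group mean was 0, which gave 14130 genes of 23434 rows in the authors' deposited table.

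Neuronal pentraxin 1, the product of NPTX1, is a secreted protein of the pentraxin family. At synapses it binds AMPA-type glutamate receptors together with neuronal pentraxin 2 and the membrane-bound neuronal pentraxin receptor, and helps to cluster the receptors on the cell surface. A short hairpin RNA is processed by the cell into a small RNA that guides cleavage of a matching messenger RNA. Different hairpins against the same gene share the target but can differ in the other transcripts they affect.

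Every level below is an authors' mean, the mean of size-factor-normalized counts over the libraries of a group. The libraries behind a mean were not analysed singly, so a mean has no SD, overlap between the groups cannot be given, and no test of shNPTX1_4 alone was possible. The change is given as a log2 ratio, log2 of (shNPTX1_4 mean + 1) over (shCTRL mean + 1). Its error is an approximate standard error (SE), derived from the standard error that the authors deposited for their pooled comparison of 7 knockdown libraries with 4 control libraries. That pooled comparison includes the shNPTX1_4 libraries and is quoted beside a gene as the one test that rests on the spread between libraries. "Higher" and "lower" describe group means and are not test results. The labels call the libraries biological replicates. The deposited p-values rest on the spread between them, which may be partly technical. Among the 7 knockdown libraries that spread also contains any difference between the hairpins, which widens the approximate SE too.

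NPTX1 itself had an authors' mean of 103 normalized counts in shCTRL and 38.4 in shNPTX1_4. This is 2.64-fold lower, a log2 ratio of -1.40 with an approximate SE of 0.28. The mean with shNPTX1_3 was 46.5, so the target was lower with either hairpin. For NPTX1 the authors' deposited table gives a pooled log2 fold change of -1.26 (standard error 0.24, DESeq2 adjusted p = 3.65e-06). Among its partners, the receptor gene NPTXR had means of 309.7 in shCTRL and 216 in shNPTX1_4, a log2 ratio of -0.52 with an approximate SE of 0.14. NPTX2, the closest relative, had means of 76.8 and 59.5, and PTX3, a long pentraxin of innate immunity, had 66.6 and 78.9. Those differences (log2 ratios of -0.36 and 0.24) were close to their approximate SEs of 0.32 and 0.34. The AMPA receptor subunit GRIA4 had means of 81.2 and 67.2, while GRIA1, GRIA2 and GRIA3 were under the minimum, at 20.3, 25.6 and 13.6 normalized counts in shNPTX1_4. The list of the target and its partners held 5 compared genes, of which 1 was at least 1.5-fold lower and none at least 1.5-fold higher, with a median log2 ratio of -0.36 beside 0.02 over all genes.

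Across the whole gene range, most genes lay close to control. The median log2 ratio was 0.0181, the quartiles were -0.20 and 0.22, and 90.6% of genes were within 1.5-fold of control. With shNPTX1_4, 208 genes (1.47% of those compared) were 2-fold or more above control and 175 (1.24%) were 2-fold or more below it. At 1.5-fold the counts were 656 (4.64%) and 675 (4.78%), and at 4-fold they were 27 and 19. TRPA1 alone was more than 8-fold higher, and no gene was 8-fold lower. At the 2-fold threshold, SNCG lay just inside with a log2 ratio of 1.000 and ITGB5 just outside with 0.998. The median approximate SE was 0.14 over all genes and 0.26 among the genes past 2-fold. Of the 208 higher genes 197, and of the 175 lower genes 165, were also at least 2 approximate SEs from 0. A choice by 2-fold largely sets these counts at such SEs, so they are no added support.

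The authors' pooled test called 2740 genes higher (19.4% of 14126 with an adjusted p) and 1845 lower (13.1%) with a DESeq2 adjusted p under 0.05, by a count over the authors' deposited table. When the groups are set to equal totals, the same statistics give 1976 higher and 2665 lower, so the share called higher moves from 59.8% to 42.6%. Of the 208 genes higher with shNPTX1_4, 182 were called higher by the pooled test, and of the 175 lower genes 142 were called lower. These shares are no independent support, since the pooled test contains the same libraries. The other 26 and 33 genes were past 2-fold with shNPTX1_4 without a pooled call in that direction.

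The direction of the larger ratios changed with expression level. Among 3919 genes at 2 to 10 CPM, 94 were 2-fold or more above control and 122 were 2-fold or more below it. Among 7881 genes at 10 to 100 CPM the counts were 89 and 52, and among 2330 genes at 100 CPM and more they were 25 and 1. The single abundant gene that was at least 2-fold lower was DSP, which encodes desmoplakin. The median approximate SE fell from 0.21 in the lowest band to 0.11 in the highest. The ratio also had a Spearman rho of -0.188 with transcript length and 0.212 with level, as a description across genes, which are not independent replicates. Transcript length was known for 13643 genes, and the median length was 4492 bases in the 2-fold lower genes, 3758 in the 2-fold higher genes and 3655 in all of them.

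**Figure D1:**
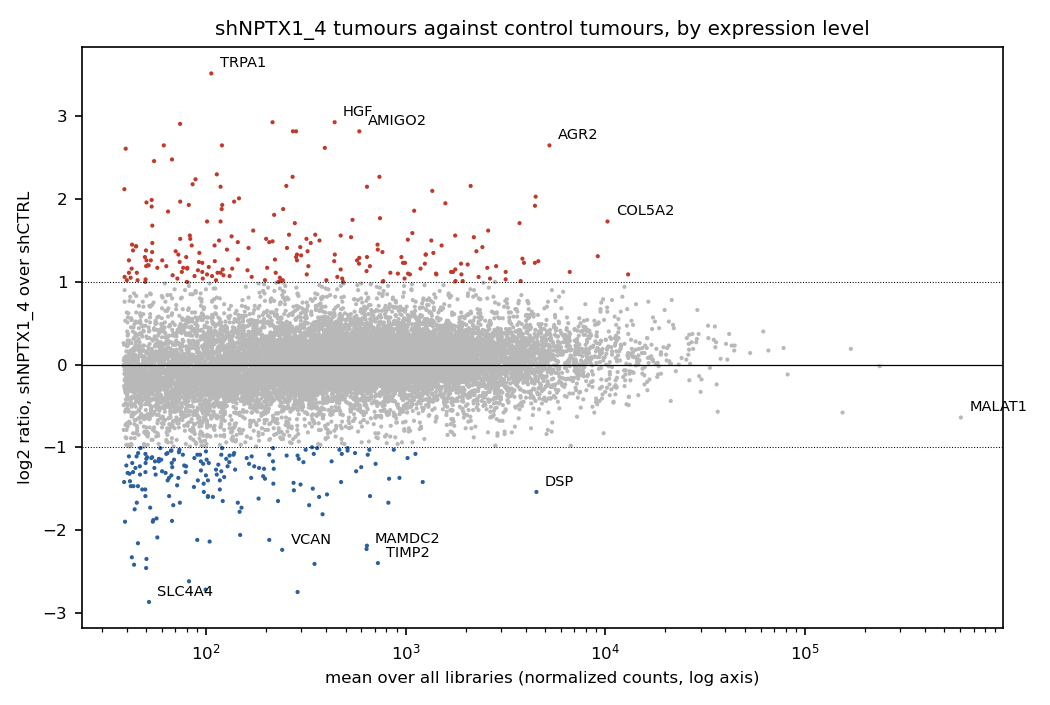
Log2 ratio of shNPTX1_4 over shCTRL (vertical axis) against the mean over all 11 libraries in normalized counts (horizontal log axis), 1 point for each of 14130 genes. Genes at least 2-fold higher (208) are red, genes at least 2-fold lower (175) are blue and the dotted lines mark 2-fold; above 100 CPM the points past 2-fold are 25 higher and 1 lower.

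The promoters of 5 genes past 2-fold are shown because each holds a short core or response element near its start and because the genes are described below. They were chosen after the values were seen. The sequences are from RefSeq (GRCh38.p14) and run from 250 bases before to 50 bases after the first listed start, on the gene's strand. Capitals mark only the TATA box, CRE or AP-1 element named for that gene in the next paragraph, and matches to other motifs are left in lower case, such as 3 of the TEAD core GGAATG in MAMDC2. Each motif was searched on both strands. The TATA box was searched as TATAAA and the AP-1 element as TGANTCA. The cyclic AMP response element, or CRE, was searched as TGACGTCA. AREG, S100A4, ELF3 and AMIGO2 had higher means with shNPTX1_4, and MAMDC2 had a lower one.
AREG promoter, chr4:74444886-74445185, plus strand: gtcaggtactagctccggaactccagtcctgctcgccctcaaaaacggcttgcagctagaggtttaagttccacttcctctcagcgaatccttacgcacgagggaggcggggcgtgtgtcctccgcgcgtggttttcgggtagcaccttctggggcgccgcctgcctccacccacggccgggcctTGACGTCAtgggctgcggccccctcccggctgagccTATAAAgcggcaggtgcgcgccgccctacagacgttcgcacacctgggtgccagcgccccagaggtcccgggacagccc
S100A4 promoter, chr1:153545757-153546056, minus strand: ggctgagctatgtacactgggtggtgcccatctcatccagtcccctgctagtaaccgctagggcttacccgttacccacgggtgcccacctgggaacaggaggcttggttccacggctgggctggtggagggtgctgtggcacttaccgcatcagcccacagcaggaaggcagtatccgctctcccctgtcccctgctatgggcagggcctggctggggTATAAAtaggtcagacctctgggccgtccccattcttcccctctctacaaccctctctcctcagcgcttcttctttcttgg
ELF3 promoter, chr1:202010337-202010636, plus strand: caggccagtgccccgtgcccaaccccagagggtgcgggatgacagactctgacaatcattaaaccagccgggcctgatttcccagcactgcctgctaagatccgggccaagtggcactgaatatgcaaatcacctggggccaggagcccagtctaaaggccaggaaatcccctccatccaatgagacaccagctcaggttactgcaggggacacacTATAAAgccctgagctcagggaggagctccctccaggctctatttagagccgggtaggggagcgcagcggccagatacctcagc
MAMDC2 promoter, chr9:70043331-70043630, plus strand: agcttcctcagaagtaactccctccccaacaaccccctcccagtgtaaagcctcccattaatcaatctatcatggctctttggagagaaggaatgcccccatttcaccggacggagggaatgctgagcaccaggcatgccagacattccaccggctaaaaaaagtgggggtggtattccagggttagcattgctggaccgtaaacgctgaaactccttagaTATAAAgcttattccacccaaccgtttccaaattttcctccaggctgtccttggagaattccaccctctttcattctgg
AMIGO2 promoter, chr12:47079902-47080201, minus strand: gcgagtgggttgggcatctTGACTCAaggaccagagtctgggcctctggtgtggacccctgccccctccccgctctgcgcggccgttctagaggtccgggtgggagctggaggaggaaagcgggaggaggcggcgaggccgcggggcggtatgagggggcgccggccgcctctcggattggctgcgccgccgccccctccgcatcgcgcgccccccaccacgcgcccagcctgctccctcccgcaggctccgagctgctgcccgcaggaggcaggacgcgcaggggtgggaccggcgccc

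In AREG the TATA box begins 29 bases before the start and the CRE 65 bases before it. A TATA box begins 31 bases before the start in S100A4, 34 in ELF3 and 29 in MAMDC2. In AMIGO2 the AP-1 element begins 231 bases before the start. A match to these letters is a description and not a binding site. Promoters were matched by symbol for 10474 of the compared genes, including 138 of the 2-fold higher and 110 of the 2-fold lower genes. TATAAA was present in 17.4% of the promoters of higher genes, 10.9% of those of lower genes, 5.65% of those of all compared genes and 12% of all 27305 promoters in the reference table. TGACGTCA was present in 5.07%, 1.82%, 3.10% and 1.98% of the same sets, and TGANTCA in 7.97%, 3.64%, 4.60% and 7.76%. For higher and lower genes these shares rest on few promoters, 7 and 2 with TGACGTCA and 11 and 4 with TGANTCA. The E-box CACGTG, a motif of MYC and related factors, was in 5.07% of the promoters of higher genes and 4.55% of those of lower genes, against 9.91% of those of compared genes. GGAATG, a core of the TEAD motif, was in 13.8%, 15.5% and 10.6% of the same 3 sets. The median GC content of the windows was 63.3% for higher, 67.5% for lower and 65.0% for all compared genes.

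Among the genes that were high with both hairpins, TRPA1, which encodes a cation channel gated by irritants, had the highest ratio. Its authors' mean was 17.1 normalized counts in shCTRL and 206 in shNPTX1_4, a log2 ratio of 3.52 with an approximate SE of 0.39. TRPA1 reached 91.4 with shNPTX1_3, so the mean of shNPTX1_4 was the highest of the 3 groups. HGF, the ligand of the MET receptor, had means of 71.7 in shCTRL and 553 in shNPTX1_4, 7.62-fold higher. AGR2, a disulfide isomerase of mucus-secreting epithelia that is used as a marker of classical pancreatic carcinoma, had means of 1505 and 9426, 6.26-fold higher with an approximate SE of 0.27 in log2. AGR2 had the highest counts of these 12 genes in every group, and its shNPTX1_3 mean was 4661. NTN4, a secreted netrin, went from 65.1 to 467, AMIGO2, a neuronal adhesion protein, from 138 to 980.5, and EDIL3, a secreted integrin ligand, from 50.2 to 361. ABCG2, a drug efflux pump, had means of 11.3 and 75.9, and GALNT5, which starts O-linked sugar chains, had 8.22 and 55.5. TPD52L1 (51.9 and 401), SDR16C5 (28.3 and 183), RCSD1 (15.3 and 90.1) and the acid-sensing channel gene ASIC2 (15.8 and 91.1) completed the 12 highest. The rule that chose these 12 required a DESeq2 adjusted p under 0.05, and the largest that the authors' deposited table holds for them is 1.19e-08, for TPD52L1.

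At the other end, SLC4A4, a sodium bicarbonate cotransporter of pancreatic duct epithelium, had the lowest ratio. Its means were 106 in shCTRL and 13.7 in shNPTX1_4, 7.30-fold lower with an approximate SE of 0.39 in log2. OSBPL6, an oxysterol-binding protein gene, had means of 542 and 79.8, and SEMA6B, a membrane semaphorin, 197 and 29. TIMP2, an inhibitor of matrix metalloproteinases, had means of 1414 and 267, 5.27-fold lower. FREM2, a basement membrane protein, had 730.1 and 136, and VCAN, the proteoglycan versican, had 491 and 103. These 3 genes were lower with shNPTX1_3 too, at 416, 124 and 89.0. PRDM1, a transcriptional repressor, had means of 1276 and 278 and was at 272 with shNPTX1_3. TRIM9 (154 and 24.3), CEP295NL (90.7 and 16.1), TEX15 (89.8 and 16.9) and P2RY8 (81.9 and 17.6) were also among the 12 lowest. CEP295NL lies within TIMP2, and no source used here gives the strand setting of the counting. Reads of the 2 genes may be shared. TLR2, a receptor for bacterial lipoproteins, had means of 103 and 17.9 but an approximate SE of 0.93, wide beside its log2 ratio of -2.46, and its DESeq2 adjusted p in the authors' deposited table was 0.0364.

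**Figure D2:**
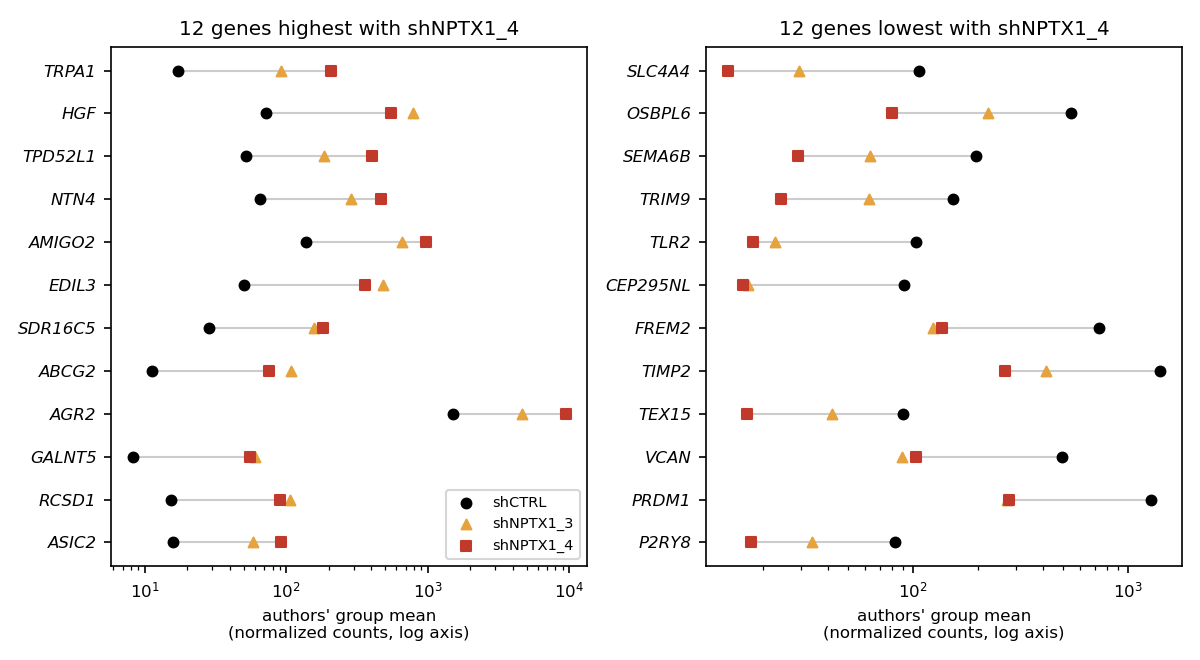
Authors' means in normalized counts (horizontal log axes) of the 12 genes with the highest and the 12 with the lowest shNPTX1_4 ratio among genes at least 2-fold the same way with both hairpins, with shCTRL as circles, shNPTX1_3 as triangles and shNPTX1_4 as squares. TRPA1 runs from 17.1 in shCTRL to 206 in shNPTX1_4 and SLC4A4 from 106 to 13.7; no error bars are drawn because single libraries were not analysed here.

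Part of each list was shared between the hairpins. Of the 208 genes at least 2-fold higher with shNPTX1_4, 134 (64.4%) were also at least 2-fold higher with shNPTX1_3, which is 32.1% of the 417 higher genes of that hairpin. Another 46 were 1.2- to 2-fold higher with shNPTX1_3, 14 were within 1.2-fold of control and 14 were at least 1.2-fold lower. Over these 208 genes the median log2 ratio was 1.30 with shNPTX1_4 and 1.31 with shNPTX1_3. Of the 175 lower genes, 69 (39.4%) were at least 2-fold lower with shNPTX1_3, or 32.2% of the 214 lower genes of that hairpin. Another 76 were 1.2- to 2-fold lower, 16 were within 1.2-fold and 14 were at least 1.2-fold higher. Over the 175 genes the median was -1.30 with shNPTX1_4 and -0.84 with shNPTX1_3. The lower genes thus lay nearer control with shNPTX1_3, while the higher genes, chosen by the same rule, did not. The reason was not tested. Both ratios share the shCTRL mean, so a chance high or low control value moves both the same way. The difference between the hairpins was not tested. Over all genes compared, 36.6% were further from control with shNPTX1_4 than with shNPTX1_3, and the median distance from control was 1.15-fold and 1.22-fold.

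**Figure D3:**
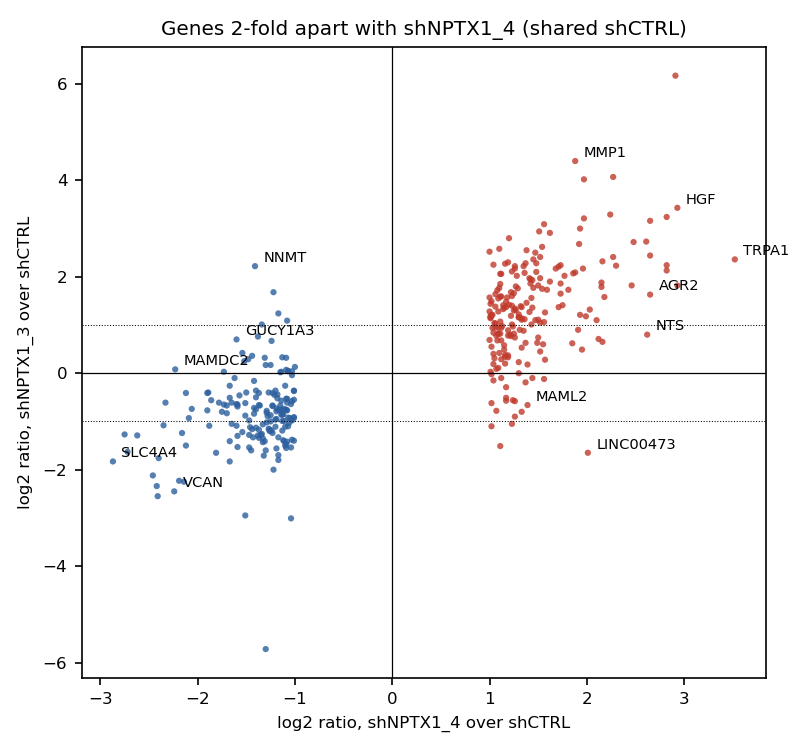
Log2 ratio with shNPTX1_3 (vertical axis) against the log2 ratio with shNPTX1_4 (horizontal axis) for the 208 genes at least 2-fold higher (red) and 175 at least 2-fold lower (blue) with shNPTX1_4. Dotted lines mark 2-fold for shNPTX1_3; 134 red points lie at or above the upper line and 69 blue points at or below the lower one, and both axes share the shCTRL mean.

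Some genes were past 2-fold with shNPTX1_4 while shNPTX1_3 stayed within 1.2-fold of control or lay on the other side. They were 28 of the 208 higher and 30 of the 175 lower genes. Among the lower genes of this set, MAMDC2, a secreted proteoglycan gene, had the lowest ratio and averaged 872 normalized counts in shCTRL, 184 in shNPTX1_4 and 922 in shNPTX1_3. MAMDC2 was thus 4.71-fold lower with shNPTX1_4 and near control with shNPTX1_3. Its approximate SE was 0.69, which contains this difference between the hairpins. Both subunits of soluble guanylate cyclase, the receptor of nitric oxide, were in this set: GUCY1A3 had means of 111 and 35.9, and GUCY1B3 had 105 and 37.0, against 180.1 and 129 with shNPTX1_3. Transcription factor genes FOXE1 (70.1 and 20.4) and IRX3 (249 and 80.0), the proteoglycan gene SRGN (337 and 117) and ECSCR (105 and 32.3) were lower in the same way. YPEL2 (114 and 38.6), BICC1 (115 and 41.6) and FCHO1 (52.5 and 19.0) completed the 10 lowest. Each of these genes was close to its control level with shNPTX1_3 or above it.

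On the higher side, LINC00473, a long non-coding RNA induced by cyclic AMP signalling, had means of 75.9 in shCTRL, 309 in shNPTX1_4 and 23.5 in shNPTX1_3, with an approximate SE of 0.94. MAML2, a coactivator of Notch receptors, had 486, 1276 and 306, and HOXA5, a homeobox factor, had 198, 499 and 114. HDAC9, a histone deacetylase, had 621 in shCTRL and 1529 in shNPTX1_4 and was level with control at 619 in shNPTX1_3. CTHRC1, a secreted collagen-repeat protein, had 178, 441 and 208, with an approximate SE of 0.28, the smallest among the 10 highest of this set. STYK1 (48.7 and 146), SELENOP, a selenium carrier (52.2 and 144), DMD, which encodes dystrophin (77.8 and 205), RAPGEF5 (208 and 540.2) and TNIK (42.2 and 102) were the others. Of these 20 named genes, the authors' deposited table gives pooled DESeq2 adjusted p-values under 0.05 to STYK1 (0.0197), CTHRC1 (0.0016), ECSCR (0.0379) and FCHO1 (0.042). The pooled test averages both hairpins, which lie apart for these genes by the way they were chosen.

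Genes at least 1.5-fold on opposite sides of control numbered 14 of the 656 higher and 28 of the 675 lower with shNPTX1_4. Over all 14130 genes compared, 1100 were at least 1.5-fold lower and 1246 at least 1.5-fold higher with shNPTX1_3. Beside LINC00473, MAML2 and HOXA5, the highest were DACH1 (38.0 in shCTRL, 92.3 in shNPTX1_4 and 19.8 in shNPTX1_3) and COL22A1 (70.8, 167 and 33.6). Beside GUCY1A3, the lowest were NNMT, a nicotinamide methyltransferase (23, 8.03 and 111), and the matrix protease gene ADAMTS4 (856, 328 and 1446). WISP3 (63.3, 24.5 and 128) and the lipid carrier gene APOE (628, 265 and 1002) followed. The approximate SEs of these 10 genes ran from 0.59 to 1.16, wide beside the median of 0.14 over all genes. The SE contains the difference between the hairpins, so choosing genes on opposite sides of control itself favours a wide SE. It is therefore no measure of the spread within the shNPTX1_4 or shCTRL libraries, and the opposite signs are not tested.

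Ordered by the number of normalized counts gained or lost, without regard to gene length, abundant genes lead. TMSB4X, which encodes the actin-binding thymosin beta 4, had means of 22542 in shCTRL and 35582 in shNPTX1_4, and the ribosomal protein gene RPS16 had 15020.2 and 25817. COL5A2, a fibrillar collagen chain, had 4004 and 13313, the cell cycle kinase gene CDK6 had 9177 and 17582, and ASPH, an aspartyl hydroxylase, had 7236 and 15379.9. PRSS23, a secreted serine protease, had 5156 and 12815, and the actin crosslinker gene FLNA had 12872 and 20408. CDK6 was close to control with shNPTX1_3, at 10026, whereas COL5A2 (14502) and ASPH (17537) were higher with both hairpins.

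The largest loss was in MALAT1, a nuclear long non-coding RNA, with means of 750289 in shCTRL and 481245 in shNPTX1_4, a log2 ratio of -0.64 with an approximate SE of 0.24. SRRM2, a splicing factor of nuclear speckles, had 14128 and 7935. DSP had 7459 and 2561, 2.91-fold lower with an approximate SE of 0.13 in log2, and was at 3198 with shNPTX1_3. MARCKS (7601 and 3854), GNB1 (6291 and 3593) and ASAP2 (6049 and 3387) were lower with shNPTX1_4 while their shNPTX1_3 means were 9317, 6554 and 6018. ZNF217 (9575 and 6190.1) was lower with both hairpins, and FTH1, the ferritin heavy chain, had 6359.7 and 3682 beside 5501 with shNPTX1_3.

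Genes were then described by pathway and role, in lists chosen with earlier results of these data known. Each count below stands beside 1.47% and 1.24% of all genes at least 2-fold higher and lower, 4.64% and 4.78% at 1.5-fold, and a median log2 ratio of 0.02. By chromosome, the share of compared genes above 0 ran from 39.2% (chromosome 19) to 75.1% (chromosome X). Among genes at 100 CPM and more the median log2 ratio was 0.08. Of 34 lists with at least 5 compared genes in addition to the target's own, 20 had a median above 0 and 14 below 0, from -0.28 to 0.44. No list was tested as a set.

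Epithelial genes moved in both directions. Of 22 compared genes of epithelial junctions and keratins, 6 were at least 1.5-fold higher and 2 lower, with a median of 0.13. The simple keratin gene KRT19 had authors' means of 1272 in shCTRL and 4803 in shNPTX1_4, KRT8 had 8293 and 14002, and the tight junction gene CLDN4 had 501 and 881. ELF3, an epithelial transcription factor, had 98.1 and 323. The lower members were 2 junction genes, DSP of the desmosome and OCLN of the tight junction (2199.6 and 1359). Of 19 mesenchymal genes 3 were at least 1.5-fold higher and 6 lower, with a median of -0.18 that becomes 0.16 at a minimum of 10 CPM. FN1, which encodes fibronectin, had 274 and 934, and S100A4, a calcium-binding protein of motile cells, had 857 and 2222, while the N-cadherin gene CDH2 had 698 and 415 and LOX, a collagen crosslinker, had 132 and 72.2. NT5E (3899 and 6347) was the other higher member, and CDH11 (43.6 and 22) and POSTN (38.7 and 21.5) were lower with approximate SEs of 0.69 and 0.98.

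Lineage factors and subtype genes of the pancreas had 25 compared members, 5 of them at least 2-fold higher and 1 lower, with a median of 0.06. Beside AGR2, ELF3 and S100A4, FOXA2, a pioneer factor of endoderm, had 199.7 in shCTRL and 567 in shNPTX1_4. PRDM1 was the member at least 2-fold lower, and RUNX3 had 74.3 and 40.2. Of 23 genes of mucins and O-glycosylation, 4 were at least 1.5-fold higher and 3 lower, with a median of 0.20. The gel-forming mucin gene MUC5B had 16.4 and 67.5 and ST3GAL1 had 266 and 439, whereas MUC6 had 58.4 and 28.8, MUC12 had 66.5 and 38.8 and GALNT6 had 442 and 288. C1GALT1C1, a chaperone for core O-glycan synthesis, had 441 and 753.

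Matrix genes were mixed. Of 19 collagens, 4 were at least 2-fold higher and 1 lower, with a median of 0.31 that was 0.05 without the 2 collagens of chromosome X. Beside COL5A2, COL3A1 had means of 731 in shCTRL and 2247 in shNPTX1_4, COL4A5 had 268 and 657, and COL6A1 had 3354 and 7298. COL5A1 (1172 and 534), COL4A1 (1250 and 651) and COL4A2 (1954 and 1168) were lower with shNPTX1_4 and not with shNPTX1_3, where they were 1469.8, 1429 and 2254. Of 15 laminin and basement membrane genes, 3 were at least 2-fold higher and 1 lower, with a median of -0.04. LAMB1, a laminin chain, had 2211 and 5249 and NID2 had 20.1 and 55.8, while FREM2 was the low member and AGRN, which encodes agrin, had 3672 and 2053. Integrins had the highest median of any list, 0.44 over 14 genes, of which 11 were above 0. ITGB5 had 1817 and 3631 and ITGA2, a collagen receptor chain, 1454 and 2776, while ITGA1 had 228 and 118 and ITGB3 had 513 and 307.

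Of 25 proteases and inhibitors, 3 were at least 1.5-fold higher and 4 lower, with a median of -0.03 that was 0.13 at a minimum of 10 CPM. MMP1, an interstitial collagenase, had means of 31.7 in shCTRL and 119 in shNPTX1_4 with an approximate SE of 0.83. PLAT, the tissue plasminogen activator gene, had 37.7 and 64.0 and TIMP1 had 171 and 270. TIMP1 and TIMP2, inhibitors of the same family, thus lay on opposite sides of control. ADAMTS1 (178 and 72.1), SERPINE2 (131 and 72.9) and MMP9 (32.4 and 18.1, approximate SE 0.82) were lower. Of 21 complement and coagulation genes, 5 were at least 1.5-fold higher and 1 lower, with a median of 0.31. TFPI2, a protease inhibitor, had 598 and 1390.4, THBD, which encodes thrombomodulin, had 52.2 and 118, CD55 had 238 and 432 and PROS1 had 713 and 433.

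Among 25 growth factor ligands, 9 were at least 1.5-fold higher and none lower, with a median of 0.25. HGF led them, and AREG, an EGF receptor ligand, had authors' means of 40.7 in shCTRL and 137 in shNPTX1_4. VEGFC, a lymphatic growth factor, had 191 and 409, and CTGF, a matricellular protein, had 1825 and 4097 but 1494 with shNPTX1_3. Of 26 receptor tyrosine kinases, 3 were at least 1.5-fold higher and 3 lower, with a median of 0.06. MET, the receptor of HGF, had 1826 and 3718 with an approximate SE of 0.13 in log2, so the ligand and its receptor were both higher. RET had 296 and 709.9 and EGFR 3157 and 5283, while FGFR1 had 3437 and 1942 and INSR had 310 and 206. ERBB4 had 216 and 135, but its approximate SE of 0.74 was larger than its log2 ratio of -0.67 in size.

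Of 35 genes of the TGF-beta, activin and BMP pathway, 4 were at least 1.5-fold higher and 5 lower, with a median of -0.16. The higher ones were ligands, a ligand-binding matrix protein and a receptor: INHBB, the activin B subunit (74.7 in shCTRL and 337 in shNPTX1_4), LTBP1 (646 and 1379), TGFBR2 (830.4 and 1444) and TGFB3 (148 and 254). Among the lower ones were BMP targets and antagonists, ID2 (804 and 419), NOG, which encodes noggin (351 and 183), and SMAD6 (151 and 80.3), and the receptor gene BMPR1B (175 and 96.8). Of 33 WNT pathway genes, 5 were at least 1.5-fold higher and 8 lower, with a median of -0.12 that was 0.04 at a minimum of 10 CPM. The secreted antagonist DKK1 had 1042 and 2779.8, the receptor LGR4 had 1673 and 3806, WNT9A had 46.3 and 93.2 and PORCN had 36.2 and 59.3. AXIN2, a feedback target of the pathway, had 79.0 and 35.8, TCF7L1 had 135 and 61.1, and the receptors FZD7 and FZD1 had 87.5 and 40.5, and 127 and 63.9. The antagonist DKK1 was thus higher and the feedback target AXIN2 lower.

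Among 24 Notch genes, 1 was at least 1.5-fold higher (MAML2) and 5 lower, with a median of -0.04. The receptor NOTCH3 had means of 350.4 in shCTRL and 128 in shNPTX1_4, the target HEYL had 70.4 and 27.5, the feedback regulator NRARP had 818 and 468 and HES2 had 749 and 471. All 4 were also lower with shNPTX1_3, at 156, 20.8, 402 and 625. Of 31 genes of RAS-ERK feedback and output, 1 was at least 1.5-fold higher, the phosphatase DUSP4 (45.5 and 125), and 1 lower, DUSP2 (65.9 and 34.6, approximate SE 0.61), with a median of -0.05. Of 27 YAP-TEAD genes, 6 were at least 1.5-fold higher and 1 lower, with a median of 0.06. AMOTL1 had 938 and 2728, CRIM1 had 10859 and 17979 and GADD45A had 942 and 1627, while ASAP1 had 4652 and 2765.

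Of 18 chemokines and cytokines, 2 were at least 1.5-fold higher and 4 lower, with a median of -0.28, the lowest of the lists. CSF1, the macrophage growth factor, had authors' means of 537 in shCTRL and 1365 in shNPTX1_4 and the monocyte attractant CCL2 had 3292 and 4987. CXCL5, a neutrophil attractant, had 714 and 266, TNFSF9 had 87.5 and 50.2, IL32 had 253 and 154 and IL18 had 219 and 145. Of 29 interferon-stimulated genes, 6 were above 0, 1 was at least 1.5-fold higher and 4 lower, with a median of -0.19 beside 0.35 with shNPTX1_3. SAMD9 had 219 and 361, whereas MX1 had 93.4 and 53, IFITM3 had 1288 and 751, IFITM2 had 471 and 279 and IFIH1 had 485 and 321. None of 17 genes of MHC class I presentation was past 1.5-fold, and their median was -0.04. Of 23 NF-kB genes, 2 were at least 1.5-fold higher and 2 lower, with a median of -0.01. The endotoxin receptor gene TLR4 had 16 and 65.2 and NFKBIZ had 1407 and 2794, while TLR2 and the feedback inhibitor TNFAIP3 (479.7 and 269) were lower. TLR4 and TLR2 thus lay on opposite sides of control.

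Metabolic lists had small shifts spread over many members. Of 25 cholesterol synthesis genes, 24 were above 0 and 5 at least 1.5-fold higher, with a median of 0.30. NSDHL had means of 262 in shCTRL and 492 in shNPTX1_4, MSMO1 had 704 and 1122 and DHCR7 had 522 and 811, all enzymes of the later steps of sterol synthesis. Fatty acid genes did not share this shift: 12 of 24 were above 0, 1 was at least 1.5-fold higher (ACSL4, 1259 and 2355), and the median of 0.01 was -0.04 with equal totals. Of 38 hypoxia and glycolysis genes, 29 were above 0, 7 were at least 1.5-fold higher and 2 lower, with a median of 0.22. ADM, the peptide hormone adrenomedullin, had 1139 and 2528, BNIP3 had 1047 and 1874, the glycolytic enzyme gene PGK1 had 3902 and 6677 and PLOD2, a collagen lysyl hydroxylase, had 5157 and 8687. EPAS1, which encodes HIF-2 alpha, had 899 and 489, and CA12 had 55.4 and 32.1.

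Of 73 genes of the mitochondrial respiratory chain, 69 were above 0 and 3 at least 1.5-fold higher, with a median of 0.21. COX7C, a small subunit of complex IV, stood apart with means of 736 in shCTRL and 2002 in shNPTX1_4, 2.72-fold higher, and NDUFA1 had 891 and 1473 and NDUFB11 had 274 and 431. Of 74 cytosolic ribosomal protein genes, 68 were above 0 and 4 at least 1.5-fold higher, with a median of 0.24. Beside RPS16 these were RPL39 (2837 and 4791), RPL10 (3500.3 and 5603) and RPS4X (7291 and 11366). Ribosomal protein genes have many near-identical pseudogene copies, so how the counting split their reads is uncertain. Both lists hold short and abundant transcripts, and length and level moved with the ratio over all genes, as given above. Their part in these 2 medians was not tested.

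Of 32 genes of the unfolded protein and amino acid stress responses, 4 were at least 1.5-fold higher and 2 lower, with a median of 0.34. The folding genes CRELD2 (762 in shCTRL and 1242 in shNPTX1_4), PDIA4 (6972 and 11111) and DNAJB11 (2492 and 3859) and the transcription factor gene ATF4 (3296 and 5014) were higher. PHGDH, the first enzyme of serine synthesis, had 355 and 157, and DDIT4 had 3027 and 1916. Of 22 NRF2 targets and ferroptosis genes, 2 were at least 1.5-fold higher and 2 lower, with a median of 0.03 that was -0.01 with equal totals. ABCC3, an export pump, had 735 and 1599, while HMOX1, which encodes heme oxygenase 1, had 963 and 418 and was lower together with FTH1. Of 51 lysosome and autophagy genes, 2 were at least 1.5-fold higher and none lower, with a median of 0.09. These were GABARAPL1, an autophagosome protein (605 and 1298), and LAMP2 (2881 and 4353).

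Of 46 cell cycle genes, 35 were above 0, CDK6 was at least 1.5-fold higher and CDKN1A lower, with a median of 0.15 beside -0.02 with shNPTX1_3. CDKN1A, the p21 inhibitor of cyclin-dependent kinases, had authors' means of 887 in shCTRL, 547 in shNPTX1_4 and 1398 in shNPTX1_3, with an approximate SE of 0.45. Of 23 p53 targets, 1 was at least 1.5-fold higher (GADD45A) and 3 lower, with a median of -0.10. BTG2, an antiproliferative gene, had 187 and 79.3, and PHLDA3 had 53.2 and 33.1.

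NPTX1 acts at synapses, and other genes of nerve cell contacts and excitability were described with it. Of 47 axon guidance and synaptic adhesion genes, 4 were at least 2-fold higher and 3 lower, and at 1.5-fold 4 were higher and 8 lower, with a median of -0.12. Beside NTN4 and AMIGO2, the semaphorin receptors PLXNA2 (105 in shCTRL and 281 in shNPTX1_4) and NRP1 (1655 and 3396) were higher. SEMA6B, SEMA5A (254 and 109.6), SEMA3F (311 and 183) and the SLIT receptor gene ROBO2 (156 and 68.8) were lower. Of 34 ion channel genes, 2 were at least 1.5-fold higher, TRPA1 and the calcium channel gene CACNA1D (44.9 and 89.5), and 7 lower, with a median of 0.03 that was -0.01 with equal totals. The sodium channel gene SCN9A had 161 and 88.4, and CACNB1, a calcium channel subunit gene, had 157 and 97.9. Of 22 ABC transporters, 4 were at least 1.5-fold higher and 1 lower, with a median of 0.16. ABCG2, ABCC3 and ABCA5 (398 and 787) were among the higher ones, and ABCA1, a cholesterol exporter, had 489 and 239.

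Of 21 HOX genes, 2 were at least 1.5-fold higher and 2 lower, with a median of -0.23 beside -0.72 with shNPTX1_3. The clusters differed. All 4 compared HOXA genes were above 0, with a median of 0.78 beside -0.83 with shNPTX1_3. HOXA5, described above, was the highest of them. Of 9 HOXB genes 8 were below 0, with a median of -0.29, and HOXB5 had 609 and 325. Of 8 HOXC genes 6 were below 0, with a median of -0.35, and HOXC8 had 745 and 466. The approximate SE of HOXA5 was 0.69, which contains the difference between the hairpins.

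**Figure D4:**
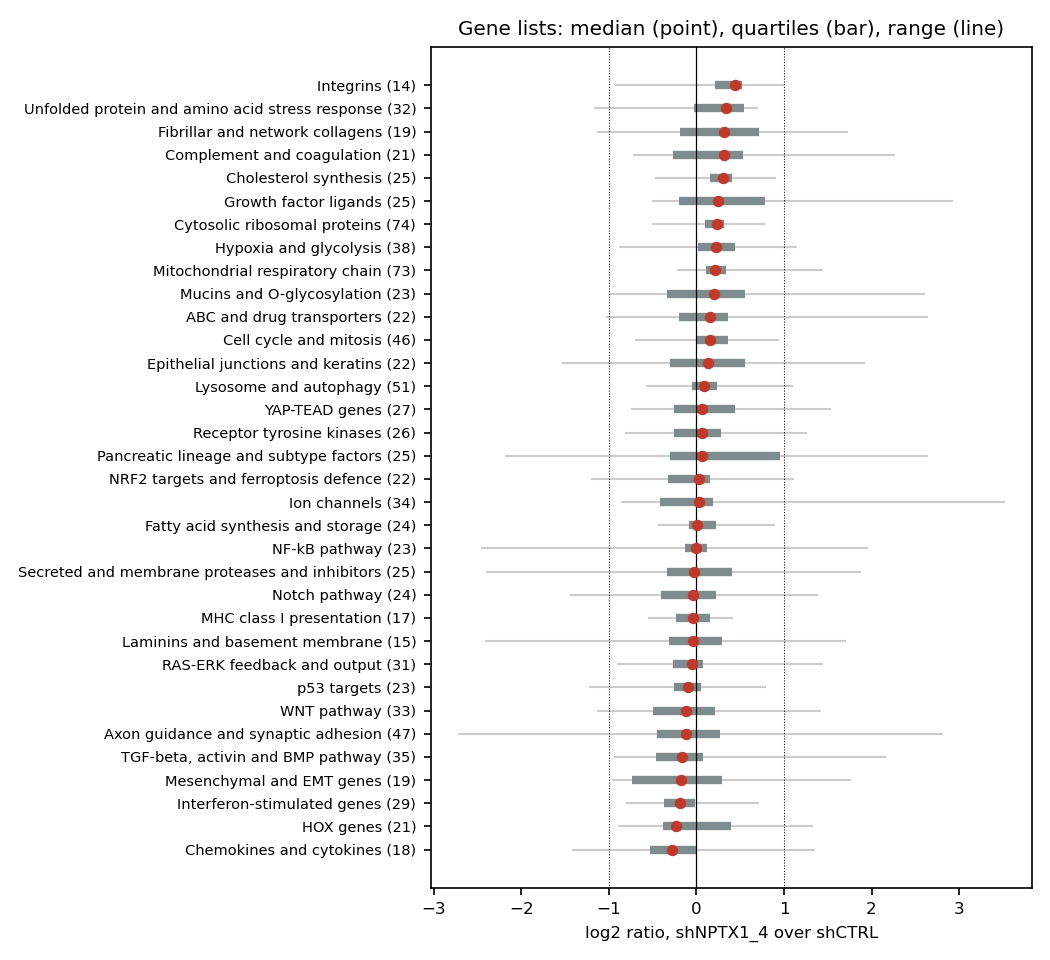
Log2 ratio of shNPTX1_4 over shCTRL (horizontal axis) by gene list (number of compared genes in brackets), with the median as a point, the quartiles as a bar and the full range as a line, and 2-fold marked by dotted lines. Medians run from -0.28 (chemokines and cytokines) to 0.44 (integrins), and single genes such as TRPA1 at 3.52 lie far outside the quartiles of their list.

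Neighbouring genes were then compared in chromosome order (RefSeq positions, matched by symbol or synonym), in runs of 20 compared genes. A gene matched through a synonym can be placed at the position of another gene. Each run starts at the next gene along, so neighbouring runs overlap and share most of their genes. The runs, chromosomes and genes in this and the next 2 paragraphs were chosen after their values were seen. The lowest run lay on chromosome 5, from PCDHA12 to PCDHGB3, in the clustered protocadherins, adhesion proteins that give neurons a surface identity. Its median log2 ratio was -1.19 (-0.63 with shNPTX1_3), and 11 of its 20 genes were at least 2-fold lower. All 12 compared PCDHB genes were below 0 and 8 were at least 2-fold lower, with a median of -1.31. PCDHB7 had authors' means of 96.8 in shCTRL and 21.9 in shNPTX1_4, PCDHB8 had 348 and 110.0 and PCDHB6 had 164 and 53.6. Of 18 PCDHG genes, 6 were at least 2-fold and 15 at least 1.5-fold lower, with a median of -0.90 (-0.79 with shNPTX1_3). Of 4 PCDHA genes, 3 were at least 1.5-fold lower, with a median of -0.73. PCDHG and PCDHA transcripts share their last exons and PCDHB genes resemble each other, so how reads were split among members is uncertain and the members are not independent.

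The runs with the most genes at least 2-fold higher were on chromosomes 12 and 7. From KLRG1 to STYK1 on chromosome 12, 7 of 20 genes were at least 2-fold higher: CD69, GABARAPL1, KLRK1, KLRC4-KLRK1, KLRC4, KLRC3 and STYK1. The KLR genes encode lectin-like receptors of natural killer cells. KLRC3 had authors' means of 39.0 in shCTRL, 177 in shNPTX1_4 and 146 in shNPTX1_3, KLRK1 had 41.7, 122 and 87.3, and CD69 had 29.9, 116 and 246. The 15 leukocyte markers described below summed to 1014 in shCTRL, 897 in shNPTX1_4 and 1103 in shNPTX1_3. PTPRC, 1 of them, was at 50.2 in shCTRL and 41.7 in shNPTX1_4. Which cells the reads of the KLR genes came from was not tested. KLRC4, KLRK1 and their joint readthrough row share sequence and may share reads. From AGMO to FAM126A on chromosome 7, 6 of 20 genes were at least 2-fold higher: TSPAN13, AGR2, AHR, HDAC9, RAPGEF5 and STEAP1B. TSPAN13, a tetraspanin, had 873 in shCTRL, 3915 in shNPTX1_4 and 1369 in shNPTX1_3, and AHR, the aryl hydrocarbon receptor, had 2165, 5098 and 6579. In this run 3 genes were at least 2-fold higher with shNPTX1_3. On chromosome 17, TIMP2, CEP295NL and NPTX1 lay within 1 run of 20 compared genes and were the 3 genes of that run at least 2-fold lower, with both hairpins.

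Chromosome X differed from the others. Its 446 compared genes had a median log2 ratio of 0.36 (0.21 with shNPTX1_3), and 118 of them (26.5%) were at least 1.5-fold higher and 5 lower, against 3.93% higher among the 13684 other genes. The medians of the other chromosomes ran from -0.08 (chromosomes 19 and 20) to 0.13 (chromosome 14). Of 427 overlapping runs of 20 genes on chromosome X, 39 had a median of at least 1.5-fold higher. Because runs share genes, these are not 39 separate regions. Elsewhere 0 runs reached that median, the highest having a median of 0.43. The top run reached from TMEM187 to DKC1, where all 20 genes were above 0 and 16 at least 1.5-fold higher, with a median of 0.68 (0.71 with shNPTX1_3). CD99L2, a leukocyte adhesion gene, had authors' means of 1031 in shCTRL and 2407 in shNPTX1_4, and TSC22D3, a target of glucocorticoids, had 128 and 367. Genes described above that lie on chromosome X include 3 of the 4 ribosomal protein genes and 2 of the 3 respiratory chain genes at least 1.5-fold higher and 2 of the 6 collagens at that fold. Among other list members at that fold, 2 of 5 cholesterol synthesis genes, the 1 fatty acid gene (ACSL4) and 1 of 2 lysosome genes also lie there. The protease, hypoxia, WNT, mucin, ABC transporter and NRF2 lists each held 1 such gene. Without the genes of chromosome X the counts at 2-fold were 197 higher and 174 lower.

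**Figure D5:**
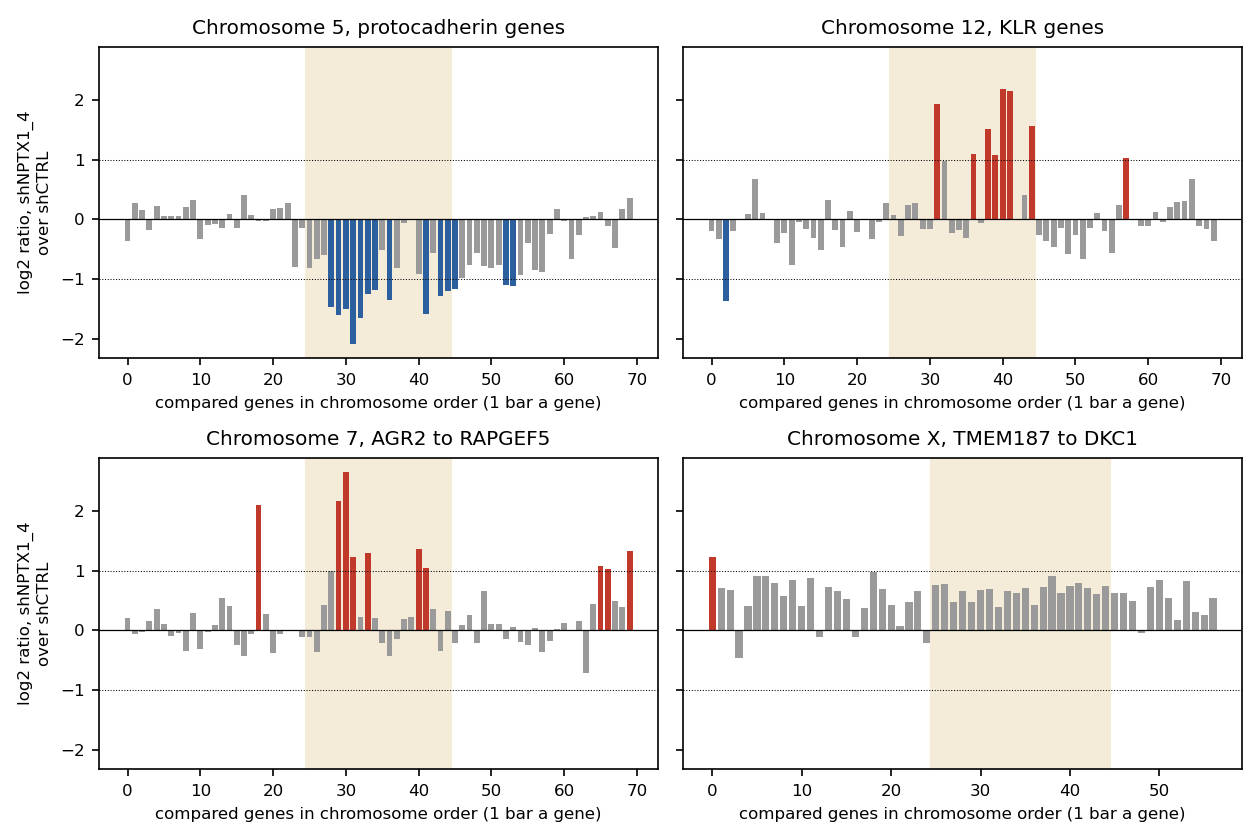
Log2 ratio of shNPTX1_4 over shCTRL (vertical axis) of compared genes in chromosome order, 1 bar a gene with no distances drawn, around 4 runs of 20 genes (shaded); red bars are at least 2-fold higher and blue bars at least 2-fold lower. The protocadherin run holds 11 genes past 2-fold lower, the chromosome 12 and 7 runs hold 7 and 6 past 2-fold higher, and in the chromosome X run all 20 bars lie above 0.

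Markers of cell types that liver tumours can hold were read in the same means, which are of human genes. The placed cells are human, so cells of the host animal enter these means only where their reads were assigned to human genes. Low values are therefore no measure of how many host cells a tumour held. The carcinoma list summed to 111696 normalized counts in shCTRL, 136781 in shNPTX1_4 and 180097 in shNPTX1_3, with KRT8, KRT18, VIM and CD44 among its abundant members. KRT7 was low in every group, at 11.1 in shCTRL and 27.7 in shNPTX1_4. Liver parenchyma summed to 219.5, 227 and 325 over 17 genes, with ALB at 0.784 in shCTRL and 0.284 in shNPTX1_4, and 2 of its genes were compared, with a median of -0.01. Leukocyte markers summed to 1014, 897 and 1103 over 15 genes, mostly from CD68 (697 in shCTRL and 635 in shNPTX1_4), and the 4 compared had a median of -0.20. Endothelial markers summed to 542, 511 and 569 over 9 genes, with VWF at 0.966 in shCTRL and 1.33 in shNPTX1_4, and a median of -0.17 over 4. Red cell markers summed to 21.9, 26.0 and 17.2. Fibroblast and stellate cell markers were the list that differed most, summing to 1744, 3473 and 6533 over 10 genes. COL3A1 and COL1A1 (725 and 1019) made up most of that sum, while DCN was at 2.41 in shCTRL and 3.37 in shNPTX1_4, COL1A2 at 74.3 and 17.5, PDGFRB at 7.58 and 6.44 and ACTA2 at 128 and 75.6. Its 4 compared genes had a median of 0.42, with 1 at least 1.5-fold higher and 1 lower. In bulk tumours, fewer cells of a type and less RNA per cell cannot be told apart. No source used here says whether reads of the host were removed before counting.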

How the data were processed

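RNA-seq was made from 4 shCTRL, 4 shNPTX1_4 and 3 shNPTX1_3 tumour libraries. Per the submitters' processing notes, the tools included DESeq2 1.24, featureCounts 2.0.0, STAR 2.7.6a and MultiQC 1.9, and the builds hg19 and mm39, with no roles stated. Annotation and strand setting: not given in the sources used here. The authors deposited, per the file headers, a mean for each group, a signal in size-factor-normalized counts that is never negative. The authors also deposited a pooled log2 fold change, its standard error, the Wald score, and a p-value before and after adjustment, in the columns of a DESeq2 results table. In 21894 of 21898 rows with counts the mean over all libraries equalled the weighted group means within a relative 1e-06. Summed means were 18734008 (shCTRL), 19323225 (shNPTX1_4) and 19997078 (shNPTX1_3) normalized counts, which are not read depths; single-library depths were not analysed here. Averaging hides the spread between libraries and weights shallow and deep libraries alike.

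Left out were 107 rows: 79 unnamed, 26 named by a date and 2 with a repeated name, 0.387% of the mean normalized counts. Of the named rows, 9197 were under the minimum; PI15 lay just inside it with a log2 ratio of -0.79 and ZNF415 just outside with 0.26. Log2 ratios used a pseudocount of 1, which understates changes of low genes. For the approximate SE, a negative binomial dispersion was solved for each gene from the deposited standard error with all size factors at 1, then put into 4 against 4 libraries; the dispersion also contains any difference between the hairpins. The step was tested on simulated data drawn from the same model, with size factors at 1 and no difference between the hairpins. That test does not show how the SE behaves where the hairpins or the size factors differ. Python 3.11.15, pandas 2.3.3, numpy 2.4.6, scipy 1.17.1 and matplotlib 3.10.9 were used. Gene order and promoters came from RefSeq, with gene order matched by symbol or, failing that, by synonym.

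The comparison and the 35 tumour and 6 marker lists were chosen with earlier results of these data known. Named genes were: the 12 highest and 12 lowest ratios called by the authors' pooled DESeq2 test (adjusted p under 0.05) and at least 2-fold the same way with shNPTX1_3; 10 each way with shNPTX1_3 within 1.2-fold of control or on the other side; 5 each way at least 1.5-fold opposite; 8 each way by difference in counts; up to 4 each way per list among members at least 1.5-fold; and NPTX1, its partners and the markers. Readthrough rows were not named by this rule. A few genes that this rule names are not reported here.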

Additional observations from a re-analysis of the deposited data

How the results depend on the processing

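The settings tried were no pseudocount or 10, a minimum mean of 1 or 10 CPM or none, equal group totals, centring on the median gene, a ratio of at least 2 approximate SEs, and, chosen after seeing the data, leaving out chromosome X. The count of genes at least 2-fold higher was 114 at a minimum of 10 CPM and 401 with no minimum, and that of lower genes was 53 and 536. The genes past 2-fold with both hairpins numbered 203 and were 102 at a minimum of 10 CPM. Fewer or more genes enter at these minimums, which by itself changes counts. The share higher among genes past 2-fold was 54.3%, with 68.3% at 10 CPM, 42.8% with no minimum and 48.3% with equal totals. Other settings kept these counts within 1.5-fold, and the median log2 ratio stayed from -0.0265 to 0.0589. The 210 named genes were recomputed only with equal totals and with a pseudocount of 10. A pseudocount cannot change the sign of a ratio, and equal totals shift every log2 ratio by about 0.045. Neither setting could therefore reverse a ratio past 1.5-fold, so their directions were not put to a test. With a pseudocount of 10 the ratios of 13 low genes moved by more than their approximate SE (TRPA1 to 2.99). Leaving out single libraries was not run, since only group means were analysed. No paired analysis was possible because the values are group means without replicate columns. Depth limits genes under 10 CPM most, where the median approximate SE was 0.21.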

Other observations

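Smaller runs of neighbours also held several genes higher with shNPTX1_4. From RNF217 to CTGF on chromosome 6, TPD52L1, ARHGAP18, ENPP1 and CTGF were at least 2-fold higher. On chromosome 14 the imprinted non-coding genes MEG3 and MEG8 averaged 2215 and 38.4 normalized counts in shCTRL against 4473 and 97.7 in shNPTX1_4, and both were at least 2-fold higher with shNPTX1_3 too. On chromosome 8, HAS2, a hyaluronan synthase, had 425 in shCTRL and 920 in shNPTX1_4, and TNFRSF11B, which encodes osteoprotegerin, had 125 and 369. On chromosome 4, TLR2, GUCY1A3 and GUCY1B3 were the 3 genes of 1 run at least 2-fold lower. By class, 13 of 719 long non-coding RNA genes were at least 2-fold higher and 4 lower, with a median log2 ratio of -0.14, against 192 and 165 of 12703 protein-coding genes with a median of 0.03. These runs and classes were chosen after their values were seen, and no test was made of them.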
